A study of Arabidopsis thaliana with 9 samples.

Results

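Tissue cultures that drive leaf cells strongly or moderately to become phloem companion cells were set against a culture that does not, and the question here is which genes of the moderate culture leave the graded line between the other groups. For each probe set the mean log2 signal of the moderate group, CC-M, was compared with the midpoint between the means of the strong group, CC-S, and the culture without induction, VISUAL. This difference is called the midpoint contrast below, and a positive value means that CC-M lies above the midpoint. Members are the 9761 probe sets, standing for 9650 gene symbols, that name exactly 1 gene and have a mean log2 signal over the 9 arrays of at least 4.07. They were taken from 38408 probe sets on the array, of which 16722 name 1 gene, for 16542 gene symbols in all, and 6961 of these lie under the floor. The lowest member mean is 4.071 and the highest mean just under the floor is 4.070. The measured contrast played no part in choosing the members.

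All 9 samples are cotyledons of 6-day-old Arabidopsis thaliana seedlings of ecotype Col-0, with 3 arrays in each group, numbered 3, 4 and 5 in the labels. Per the labels, every sample spent 48 hours in a VISUAL medium with 2,4-D at 1.25 mg per litre, kinetin at 0.25 mg per litre and bikinin at 10 µM, went on to a CC induction medium, and was taken 96 hours after that step. The protocol has the same words for the 3 groups, so how their media differ cannot be read from the labels. The source labels alone say that CC-S strongly induces companion cell differentiation, CC-M does so moderately and VISUAL does not. The labels do not say whether replicates were grown apart, so a p-value here speaks of the spread among these 9 arrays alone, which may be technical, and their number limits the precision.

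A companion cell keeps its nucleus and serves the sieve element beside it, which has none, with proteins and with the sugar that the phloem carries. VISUAL is a culture in which mesophyll cells of cotyledons are turned through a procambium-like state into xylem and phloem cells, with bikinin blocking GSK3-like kinases, 2,4-D acting as an auxin and kinetin as a cytokinin. Each array measures RNA from a whole piece of tissue, so fewer cells of a type and less RNA per cell cannot be told apart.

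A departure of CC-M from the midpoint was called for 189 members, while a place above or below both other groups got no call after adjustment. The midpoint contrast was called for 1.94% of members, against 1.29% of all probe sets, at an adjusted p under 0.05 (limma, adjusted over all 38408 probe sets). Of the called members 103 were higher in CC-M than the midpoint (1.06% of members) and 86 were lower (0.881%). The contrast had a median of 0.80 among those called higher, with a range of 0.36 to 3.29, and of -0.86 among those called lower, with a range of -1.72 to -0.40. Over all members the median was 0.00. At an unadjusted p under 0.05 the contrast passed for 1581 members (16.2%) and for 4890 of all probe sets (12.7%).

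The deposited table gives no detection calls, and the floor is set on the mean over all arrays, so a gene can be a member through the groups where it is high alone. Of the called members 17 had a group mean under 4.07, VISUAL alone in 8, both CC-M and CC-S in 7 and CC-M alone in 2. In these the size of the contrast and the order of groups under the floor are not read. The other 172, 95 higher and 77 lower, had contrasts from -1.66 to 2.52.

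A called contrast does not by itself put CC-M outside the other groups, and the 189 called members fell into separate orders of means. For 57 the order was VISUAL below CC-S below CC-M, and for 61 it was the mirror image. In both orders the CC-M mean lay past the CC-S mean as seen from VISUAL. For 12 the CC-M mean lay on the far side of VISUAL from CC-S, 4 of them above and 8 below. All of these are orders of means, and the CC-S minus VISUAL difference behind them could be near 0. It was -0.0017 in AT3G27400, counted as past CC-S, and 0.03 in AT5G48500, counted on the far side. In the remaining 59 CC-M lay between the other means, in 58 nearer to CC-S and in 1, EXO, nearer to VISUAL. Among all 9761 members CC-M lay above both means in 2172, below both in 1983, between them and nearer to CC-S in 3725, and between them and nearer to VISUAL in 1881.

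The stricter question, whether CC-M differs from CC-S and from VISUAL in 1 direction, got no call. With the larger of the 2 pairwise p-values taken for each probe set (limma), 0 members passed after adjustment, the smallest adjusted p being 0.672, and 0 of all probe sets passed. At an unadjusted p under 0.05 this test passed for 220 members (2.25%) and for 849 of all probe sets (2.21%), nearly the same share. The 3 CC-M values lay outside the range of the 6 others in 422 members (4.32%, against 3.67% of all probe sets), above it in 222 (2.27%) and below it in 200 (2.05%). Among the 189 called members 38 had all CC-M values above and 47 had all of them below, and the other 104 overlapped. The same arrays entered the calls, so this separation largely follows from them and nothing is read from it.

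The midpoint contrast is the average of CC-M minus VISUAL and CC-M minus CC-S on the same arrays, so the pairwise counts among called members are given with nothing read from them. CC-M minus VISUAL was called for 184 of the 189 (18.9% of all members) and CC-S minus VISUAL for 161 (31.7% of all members). CC-M against CC-S was called for 1 of the 189, EXO, and for 3 of all members (0.0307%). The others were AT2G32880, with means of 7.06 in VISUAL, 8.15 in CC-M and 9.28 in CC-S, and AT1G21326, with 5.73, 6.95 and 8.2. Both lie close to the midpoint, with contrasts of -0.02 and -0.02, and were not called for it.

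**Figure D1:**
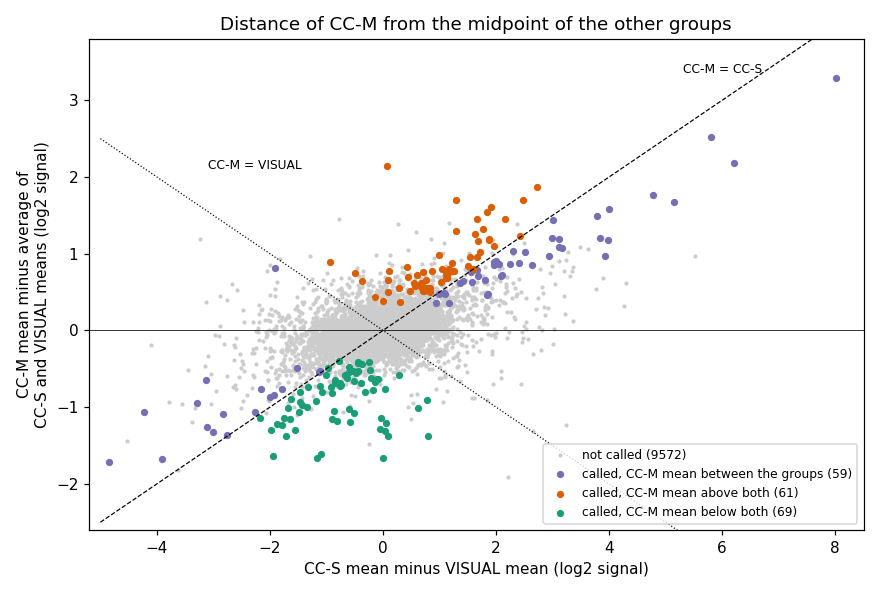
Midpoint contrast of each of the 9761 members (vertical, log2 signal) against its CC-S mean minus VISUAL mean (horizontal, log2 signal). Grey points were not called, and coloured points are the 189 called members by the place of the CC-M mean: 61 above both other means, 69 below both and 59 between them; on the dashed line CC-M equals CC-S, and on the dotted line it equals VISUAL.

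In 21 called members, 6 higher and 15 lower, CC-M stood apart while CC-S and VISUAL did not differ at an unadjusted p of 0.05 (limma). All 21 had CC-M values outside the 6 others, against 4.32% of all members. The same arrays entered the choice of the 21, so this separation largely follows from it and nothing is read from the count. A p that misses the threshold does not show that CC-S and VISUAL were alike, so their values are given for each gene. In this report values by array are log2 signals in the order of replicates 3, 4 and 5.

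AT2G38240, known in the reference by its locus tag only, had the largest contrast of these. Its signal was 4.72, 5.03 and 4.60 in VISUAL, 5.70, 7.75 and 7.45 in CC-M and 5.07, 5.02 and 4.48 in CC-S. All CC-M values lay above all others, and CC-M replicate 3 was well below the other CC-M arrays. The contrast was 2.15 (SE 0.407, adjusted p = 0.0471, limma), and CC-M was 2.18 above VISUAL and 2.11 above CC-S. The call was lost in 8 of the 9 fits that left out 1 array, all but the fit without CC-M replicate 3, with an adjusted p of up to 0.194. Without CC-M replicate 3 this was the 1 member that passed both pairwise tests, with an adjusted p of 0.0482.

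AT1G61100 gave a smaller but tighter difference, with 7.82, 7.87 and 7.80 in VISUAL, 8.5, 8.34 and 8.27 in CC-M and 7.93, 7.84 and 7.96 in CC-S. The groups VISUAL and CC-S overlapped and CC-M lay above both. Its contrast was 0.50 (SE 0.068, adjusted p = 0.0157), and the call was lost without any of the CC-M arrays, with an adjusted p of up to 0.0905. AT5G13400 averaged 5.64 ± 0.23 in VISUAL, 6.35 ± 0.14 in CC-M and 5.73 ± 0.04 in CC-S (SD, n = 3 each), and AT2G27080 averaged 5.91 ± 0.20, 6.74 ± 0.27 and 6.02 ± 0.11. Their contrasts were 0.66 and 0.78, each with an adjusted p of 0.0367, and each stayed called in 2 of the 9 fits that left out 1 array, with an adjusted p of up to 0.18 and 0.177. The remaining 2 of the 6 higher members, AT2G07705 and AT2G07772, belong to a stretch of chromosome 2 described further on.

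Among the 15 lower members AT5G48500 had the smallest p of the test of both pairwise differences, with an unadjusted p of 0.00013 and an adjusted p of 0.672. Its signal was 6.99, 6.83 and 7.24 in VISUAL, 6.11, 5.54 and 5.50 in CC-M and 7.03, 7.31 and 6.81 in CC-S. VISUAL and CC-S covered about the same range and every CC-M array lay below it, replicate 3 less far than the others. The contrast was -1.32 (SE 0.172, adjusted p = 0.0134), and the call was lost without CC-M replicate 4 or 5, with an adjusted p of up to 0.0905.

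AT3G27400 read 6.62, 6.63 and 6.71 in VISUAL, 5.32, 5.03 and 4.63 in CC-M and 7.22, 6.71 and 6.03 in CC-S. The VISUAL arrays were tight and the CC-S arrays spread on both sides of them, while all CC-M values were lower. The contrast was -1.66 (SE 0.244, adjusted p = 0.0226), and the call was lost without any CC-M array, without VISUAL replicate 5 or without CC-S replicate 4, with an adjusted p of up to 0.108.

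SCPL45 (AT1G28110), a serine carboxypeptidase-like protein, read 6.27, 6.52 and 6.05 in VISUAL, 5.39, 4.69 and 5.22 in CC-M and 6.50, 6.44 and 6.08 in CC-S. CC-M lay below both groups, which overlapped. The contrast was -1.21 (SE 0.18, adjusted p = 0.0243), lost without CC-M replicate 4 or 5 or CC-S replicate 3 or 4, with an adjusted p of up to 0.0905. GH9C2 (AT1G64390), a family 9 glycosyl hydrolase, the family of plant endoglucanases that act on cell wall glucans, read 7.25, 7.72 and 7.59 in VISUAL, 6.54, 5.91 and 6.17 in CC-M and 7.84, 7.76 and 6.80 in CC-S. CC-S replicate 5 stood between the other CC-S arrays and CC-M. Its contrast of -1.29 (SE 0.246, adjusted p = 0.0483) was called in only 1 fit with an array left out, the one without CC-S replicate 5, and otherwise had an adjusted p of up to 0.218.

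UGT72E1 (AT3G50740), which in Arabidopsis attaches glucose to the aldehyde precursors of lignin monomers, read 8.74, 8.78 and 9.04 in VISUAL, 8.27, 8.02 and 8.21 in CC-M and 8.70, 8.84 and 8.68 in CC-S. The CC-M arrays were lower than all others by a small margin. The contrast was -0.63 (SE 0.0905, adjusted p = 0.0208), and the call was lost without any CC-M array and without CC-S replicate 3 or 4, with an adjusted p of up to 0.107. IQD28 (AT1G14380), of a family of calmodulin-binding IQ-domain proteins, averaged 5.13 ± 0.22 in VISUAL, 4.40 ± 0.15 in CC-M and 5.00 ± 0.11 in CC-S, with a contrast of -0.67 (adjusted p = 0.0493, up to 0.191 with 1 array left out). The other 9 lower members of this kind carry a locus tag only and had contrasts from -1.37 (AT1G47670) to -0.51 (AT4G03420). Among them AT5G22930 averaged 5.83 ± 0.26, 4.66 ± 0.41 and 5.79 ± 0.34 in VISUAL, CC-M and CC-S, and AT1G75000 averaged 9.68 ± 0.22, 8.71 ± 0.25 and 9.36 ± 0.16.

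**Figure D2:**
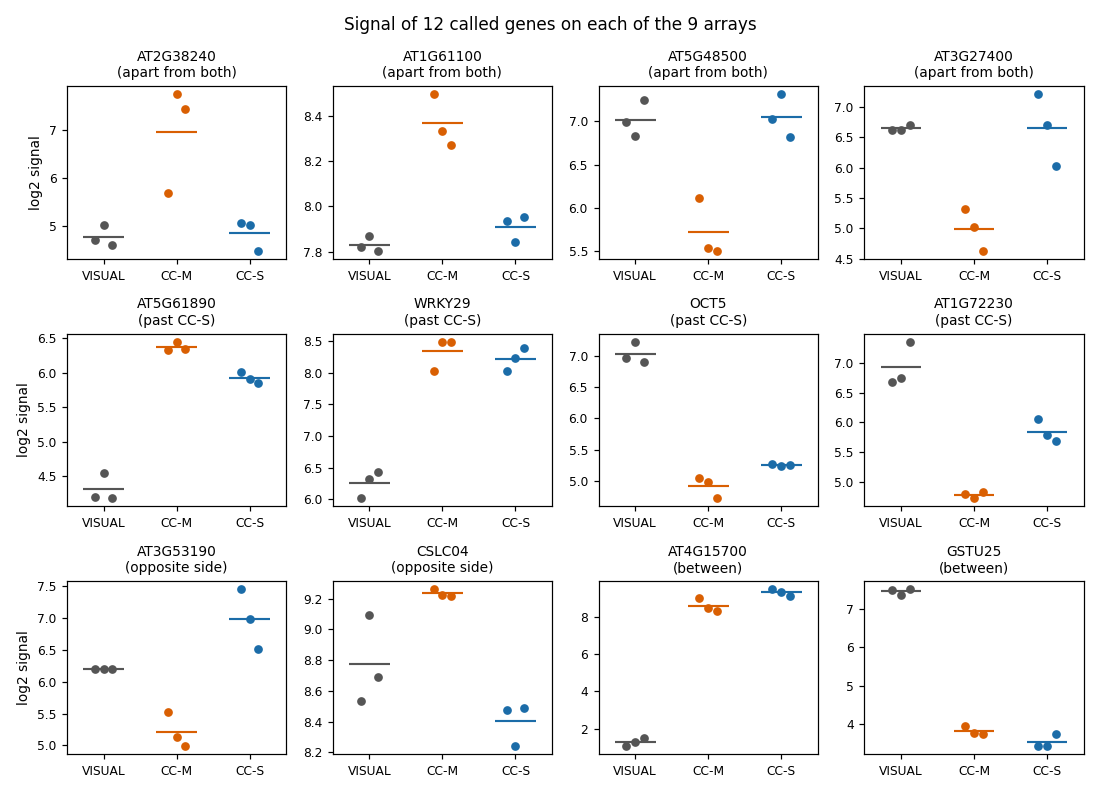
Log2 signal of 12 called genes on each array, with a dot per array, replicates 3, 4 and 5 from left to right, and a line at the group mean; each panel has its own vertical range. In the first row CC-M stands apart from VISUAL and CC-S. In the second row the CC-M mean lies past the CC-S mean, with overlapping values in WRKY29. CC-M minus CC-S was not called for the genes of that row. In the third row the CC-M mean lies on the opposite side of VISUAL from CC-S (AT3G53190, CSLC04) or between the other means (AT4G15700, GSTU25). AT4G15700 is low in VISUAL and GSTU25 in CC-M and CC-S, with those signals under the member floor of 4.07.

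In 118 called members the CC-M mean went past CC-S, and for most the step beyond CC-S was small. CC-M exceeded CC-S by a median of 0.28 in the 57 upward members, and was 0.32 lower by the median in the 61 downward ones (-0.32). The smallest upward step was 0.0084. The 21 members above are among these 118 apart from 5 described with the opposite side. In those 21 the direction from VISUAL to CC-S was not established. AT1G10750 and CCOAMT are counted too, though their CC-M and CC-S means lie under the floor and their order is not read. CC-M against CC-S was called for 0 of the 118.

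AT5G61890 had the smallest contrast p among the upward members. It read 4.2, 4.54 and 4.18 in VISUAL, 6.33, 6.45 and 6.35 in CC-M and 6.02, 5.91 and 5.85 in CC-S. The 3 groups did not overlap, and the step from CC-S to CC-M was the smaller one. The contrast was 1.26 (SE 0.107, adjusted p = 0.00388), and the call held in every fit that left out 1 array, with an adjusted p of up to 0.04. CC-M minus CC-S was 0.45 (adjusted p = 0.169). AT2G38870 had a similar shape, with means of 6.47 ± 0.04, 7.80 ± 0.15 and 7.52 ± 0.08 in VISUAL, CC-M and CC-S and a contrast of 0.80 (adjusted p = 0.00654), lost without CC-M replicate 4 (0.055).

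The largest upward contrasts with separate values came from genes that were low or variable in VISUAL. AT4G33420 read 6.56, 8.37 and 7.05 in VISUAL, 10.60, 10.36 and 10.69 in CC-M and 10.14, 10.26 and 9.74 in CC-S. VISUAL replicate 4 was the highest of its group, and CC-M lay above CC-S by a narrow margin. The contrast was 1.86 (SE 0.339, adjusted p = 0.0409), and CC-M minus CC-S was 0.51 (adjusted p = 0.682). AT2G16660 averaged 4.94 ± 0.88, 7.29 ± 0.29 and 6.24 ± 0.07 in VISUAL, CC-M and CC-S, with a contrast of 1.7 (adjusted p = 0.0464). VISUAL replicate 4 was also the highest VISUAL array for AT3G54400, AT1G19380, AT1G35350, AT3G23570 and AT1G74010, whose contrasts ran from 1.29 to 1.6. Without VISUAL replicate 4 a total of 286 members were called, against 189 with it, and without VISUAL replicate 5 a total of 75. AT4G33420 and AT2G16660 lost their calls without any CC-M or CC-S array or VISUAL replicate 5, with adjusted p-values of up to 0.168 and 0.205, and AT3G54400 and AT1G19380 without any CC-M array (up to 0.0704 and 0.0905). AT1G26730, AT5G55050, AT2G28510, AT2G30930 and AT1G60740 completed the 15 largest upward contrasts with separate values, from 1.18 down to 0.78. With 1 array left out, AT1G26730 stayed called in 6 of the 9 fits, AT5G55050 in 4, AT2G30930 and AT1G60740 in 3 and AT2G28510 in 2.

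Of the downward members OCT5 (AT1G79410), an organic cation and carnitine transporter, kept its call in every fit that left out 1 array. It read 6.97, 7.23 and 6.91 in VISUAL, 5.04, 4.98 and 4.72 in CC-M and 5.28, 5.24 and 5.25 in CC-S. Both induced groups were far below VISUAL, and CC-M was the lower of them with no overlap. The contrast was -1.23 (SE 0.109, adjusted p = 0.00388, up to 0.04 with 1 array left out), and CC-M minus CC-S was -0.34 (adjusted p = 0.289). AT1G79620 averaged 8.48 ± 0.08, 7.17 ± 0.20 and 7.89 ± 0.16 in VISUAL, CC-M and CC-S, with a contrast of -1.02 (adjusted p = 0.00654), and also kept its call (up to 0.0425).

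AT1G72230 read 6.68, 6.75 and 7.36 in VISUAL, 4.80, 4.72 and 4.82 in CC-M and 6.06, 5.78 and 5.68 in CC-S. CC-S lay about midway between VISUAL and CC-M. The contrast was -1.61 (SE 0.161, adjusted p = 0.00654), lost without CC-M replicate 4 (0.055), and CC-M minus CC-S was -1.06 (adjusted p = 0.0685). SIS (AT5G02020), named for a serine-rich protein induced by salt, read 9.14, 8.55 and 8.80 in VISUAL, 7.64, 7.35 and 7.47 in CC-M and 8.17, 8.39 and 8.36 in CC-S. Its CC-M arrays were the lowest and CC-S lay nearer to VISUAL. The contrast was -1.08 (SE 0.129, adjusted p = 0.0112), lost without CC-M replicate 4 or 5 (up to 0.0785). AT1G10750 averaged 6.01 ± 0.10, 3.41 ± 0.12 and 4.07 ± 0.47 in VISUAL, CC-M and CC-S, with a contrast of -1.64 (adjusted p = 0.0105), lost without CC-M replicate 4 or 5 (up to 0.0658). Its CC-M and CC-S means both lie under the floor, so their order is not read. AT1G64710, AT5G55970 and AT5G47635 had contrasts of -1.19, -1.18 and -1.16 with CC-M below all other arrays, and stayed called in 0, 2 and 1 of the 9 fits that left out 1 array, with adjusted p-values of up to 0.189, 0.172 and 0.176.

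The 12 members on the opposite side of VISUAL from CC-S were AT5G48500, SCPL45, AT1G47670, AT2G07772 and AT4G36180, which are also among the 21 above, and 7 others. They were listed after their values had been seen. AT3G53190 read 6.19, 6.19 and 6.21 in VISUAL, 5.52, 5.13 and 4.99 in CC-M and 7.46, 7.0 and 6.51 in CC-S. CC-S lay above VISUAL and CC-M below it, with no overlap between any of the groups. The contrast was -1.38 (SE 0.198, adjusted p = 0.02), CC-M minus VISUAL was -0.98 (adjusted p = 0.0261) and CC-S minus VISUAL was 0.79 (adjusted p = 0.0417). The call on the contrast was lost without CC-M replicate 4 or 5, VISUAL replicate 5 or CC-S replicate 4, with an adjusted p of up to 0.108.

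CSLC04 (AT3G28180), a glucan synthase that makes the backbone of the cell wall polymer xyloglucan, had CC-M on the upper side. It read 8.54, 9.09 and 8.69 in VISUAL, 9.26, 9.22 and 9.22 in CC-M and 8.48, 8.24 and 8.49 in CC-S. CC-M was the highest group and its arrays lay within a few hundredths of each other, while VISUAL replicate 4 came close to them. The contrast was 0.65 (SE 0.118, adjusted p = 0.0409), and the call was kept only in the fit without VISUAL replicate 4, with an adjusted p of up to 0.176 in the others. CC-M minus VISUAL was 0.46 (adjusted p = 0.0643, limma) and CC-S minus VISUAL was -0.37 (adjusted p = 0.0983), so neither passed. Of the remaining members AT5G06570, AT4G35730 and AT5G44572 were lower in CC-M (contrasts of -1.01, -0.58 and -0.91), and AT4G09500 and AT4G02170 were higher (0.75 and 0.89). With 1 array left out AT5G06570 and AT5G44572 stayed called in 2 of the 9 fits, AT4G35730 and AT4G09500 in 1 and AT4G02170 in 0.

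In the 59 called members with CC-M between the other means, all but EXO lay nearer to CC-S than to VISUAL. In the 50 of them with every group mean at or above the floor, CC-M had covered a median of 90.14% of the CC-S change from VISUAL. The range was 7.62% (EXO) to 99.4%, where the midpoint would be at 50%. A called contrast selects genes away from 50%, so these shares describe the called genes and nothing is read from them. AT4G15700 read 1.08, 1.3 and 1.5 in VISUAL, 9.0, 8.49 and 8.29 in CC-M and 9.49, 9.33 and 9.11 in CC-S. The VISUAL signals lay far under the floor, and CC-M lay just below CC-S with no overlap. The fitted contrast was 3.29 (SE 0.168, adjusted p = 0.000708), and 1.91 with signals under the floor raised to it, a description with no test chosen after seeing the data. It was called in every fit that left out 1 array.

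AT5G18600 went from 2.45 ± 0.51 in VISUAL to 7.73 ± 0.00 in CC-M and 8.66 ± 0.11 in CC-S, with a fitted contrast of 2.18 (adjusted p = 0.00388). Its VISUAL mean is also under the floor, and with signals raised to the floor the contrast was 1.37. AT3G55240 went from 5.89 ± 0.11 to 10.15 ± 0.37 in CC-M and 11.04 ± 0.22 in CC-S, with a contrast of 1.68 (adjusted p = 0.0057). AT1G65845 went from 6.36 ± 0.16 to 9.30 ± 0.26 and 9.37 ± 0.12, and AT5G24230 from 5.37 ± 0.15 to 7.56 ± 0.06 and 7.67 ± 0.08, so that the CC-M and CC-S arrays overlapped in both. Their contrasts were 1.44 and 1.03, and the 4 genes kept their calls with any 1 array left out.

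GSTU25 (AT1G17180), a tau-class glutathione transferase of the kind that conjugates glutathione to toxic compounds, had the smallest p among the lower members between the groups. It read 7.50, 7.37 and 7.51 in VISUAL, 3.96, 3.77 and 3.74 in CC-M and 3.44, 3.44 and 3.74 in CC-S. Both induced groups lay far below VISUAL and under the floor, so their distance from each other is not read. The contrast was -1.67 (SE 0.111, adjusted p = 0.00104, up to 0.015 with 1 array left out). AT4G16190 averaged 10.87 ± 0.12, 9.0 ± 0.09 and 8.87 ± 0.08 in VISUAL, CC-M and CC-S, with a contrast of -0.87 (adjusted p = 0.00367), and its call held in the same fits. AT2G18490 (contrast -1.72), AT5G60650 (-1.32) and AT5G38200 (-0.84) were called lower too, the first 2 with CC-M and CC-S means both under the floor. All 3 lost their calls without CC-M replicate 4, and AT2G18490 and AT5G38200 also without CC-M replicate 3 or 5, with adjusted p-values of up to 0.0772, 0.0701 and 0.0905.

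EXO (AT4G08950), EXORDIUM, a growth gene induced by brassinosteroids, was the 1 called member that stayed near VISUAL. It read 8.03, 8.17 and 7.87 in VISUAL, 7.87, 8.0 and 7.77 in CC-M and 6.25, 5.68 and 6.40 in CC-S. CC-M overlapped VISUAL and lay well above CC-S, having covered 7.62% of the CC-S change. The contrast was 0.81 (SE 0.154, adjusted p = 0.0474), called in only 1 fit with an array left out, the one without CC-S replicate 4, and with an adjusted p of up to 0.216 in the others. CC-M minus CC-S was 1.77 (adjusted p = 0.0472) and CC-S minus VISUAL was -1.91 (adjusted p = 0.000214). The other brassinosteroid-response genes among the members were EXPA8 (contrast -0.48) and XTH18 (0.64), which did not pass.

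Of the 189 called members 32 have a name in the reference beyond the locus tag, 17 higher and 15 lower, and they were all looked at after their values had been seen. The other 157 carry a locus tag only. The salicylic acid and defence list had 1 member, SAG101, with a contrast of 0.15, and 0 called (limma). WRKY29 (AT4G23550) and WRKY22 (AT4G01250) are transcription factors that act downstream of the perception of bacterial flagellin, WRKY6 (AT1G62300) is a factor active in senescence and defence, and BIK1 (AT2G39660) is a cytoplasmic kinase that relays signals from immune receptors.

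WRKY29 read 6.01, 6.31 and 6.43 in VISUAL, 8.03, 8.49 and 8.48 in CC-M and 8.03, 8.23 and 8.39 in CC-S. CC-M and CC-S overlapped, both far above VISUAL. The contrast was 1.1 (SE 0.141, adjusted p = 0.0131), and CC-M minus CC-S was 0.12 (adjusted p = 0.852). WRKY22 averaged 6.07 ± 0.15, 7.45 ± 0.34 and 7.29 ± 0.04 in VISUAL, CC-M and CC-S, with a contrast of 0.77 (adjusted p = 0.0402). WRKY6 averaged 10.31 ± 0.13, 10.83 ± 0.10 and 10.62 ± 0.01, with a contrast of 0.37 (adjusted p = 0.0422), and BIK1 averaged 9.67 ± 0.21, 10.64 ± 0.08 and 10.50 ± 0.07, with a contrast of 0.56 (adjusted p = 0.0319). For WRKY6 and BIK1 every CC-M value was above all others. WRKY29 lost its call without CC-M replicate 4 or 5 (up to 0.0905), WRKY22 without any 1 of the 9 arrays (up to 0.128), and WRKY6 and BIK1 in every such fit except that without VISUAL replicate 4 (up to 0.191 and 0.162).

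Thus 3 of 6 measured WRKY factors were called higher and 0 lower, beside 1.96% called among all genes of the members. WRKY41 (contrast -0.72, adjusted p = 0.0535), WRKY47 (-0.27) and WRKY20 (-0.02) did not pass, and the median of the 6 was 0.17. The WRKY list is short because 6 of the 72 WRKY genes of the reference were among the members. PUB54 (AT1G01680), a plant U-box protein of the ubiquitin ligase type, was called lower, with means of 7.26 ± 0.35, 4.44 ± 0.40 and 4.15 ± 0.14 in VISUAL, CC-M and CC-S and a contrast of -1.26 (adjusted p = 0.031). LCR25 (AT4G29305), of a family of small cysteine-rich proteins, was called lower at -0.82 (adjusted p = 0.0458). PUB54 stayed called in 3 of the 9 fits that left out 1 array and LCR25 in 1 (up to 0.151 and 0.171).

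Of genes for transporters, NPF6.2 (AT2G26690), of the nitrate and peptide transporter family, averaged 8.91 ± 0.26, 10.79 ± 0.20 and 10.95 ± 0.22 in VISUAL, CC-M and CC-S, with a contrast of 0.86 (adjusted p = 0.0316). GTR2 (AT5G62680), a glucosinolate importer of that family that acts in phloem loading of these defence compounds, read 8.75, 9.11 and 9.18 in VISUAL, 10.39, 10.43 and 10.41 in CC-M and 10.83, 10.86 and 10.89 in CC-S. The 3 groups did not overlap and CC-M lay nearer to CC-S. Its contrast was 0.47 (SE 0.0895, adjusted p = 0.0466), with 75.6% of the CC-S change reached. Of the 10 members in this family these 2 were called higher and 0 lower, the median contrast was 0.39, and 8 were above 0; among all genes of the members 1.96% were called and 4936 of 9650 were above 0. DTX50 (AT5G52050), a detoxification efflux carrier, averaged 3.14 ± 0.19, 5.32 ± 0.09 and 5.78 ± 0.29 in VISUAL, CC-M and CC-S (contrast 0.86, adjusted p = 0.0359), its VISUAL mean under the floor, and TAAC (AT5G01500), an ATP and ADP carrier of the thylakoid membrane, averaged 8.91 ± 0.19, 10.52 ± 0.21 and 10.51 ± 0.05 (contrast 0.81, adjusted p = 0.0136). With 1 array left out NPF6.2, GTR2 and DTX50 each stayed called in 2 of the 9 fits (up to 0.151, 0.2 and 0.158) and TAAC in 7 (up to 0.0905).

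Of the glucosinolate list 3 genes were members, 1 was called higher, GTR2, and 0 lower, with a median of 0.47. CCOAMT (AT1G67980), a caffeoyl-CoA methyltransferase of the type used to make lignin monomers, read 5.75, 5.34 and 5.16 in VISUAL, 3.28, 3.33 and 2.90 in CC-M and 3.38, 4.22 and 3.48 in CC-S. VISUAL was the highest group, and the CC-M and CC-S means both lie under the floor, so their order is not read. The contrast was -1.38 (SE 0.223, adjusted p = 0.0316), and CC-M minus CC-S was -0.52 (adjusted p = 0.457). UGT73B2 (AT4G34135), a flavonol glucosyltransferase, averaged 9.05 ± 0.11, 7.51 ± 0.08 and 7.58 ± 0.33 in VISUAL, CC-M and CC-S, with a contrast of -0.80 (adjusted p = 0.0319). UGT73B1 (AT4G34138) averaged 7.41 ± 0.20, 6.34 ± 0.26 and 6.64 ± 0.07, with a contrast of -0.68 (adjusted p = 0.0475). The UGT73B genes are neighbours of similar sequence, so probes could share signal between them. With 1 array left out CCOAMT stayed called in 4 of the 9 fits, UGT73B2 in 3 and UGT73B1 in 1 (up to 0.125, 0.122 and 0.199). Of the 28 glycosyltransferases of the UGT family among the members 3 were called lower, UGT72E1 included, and 0 higher; their median was 0.00 and 12 were above 0, and UGT76E12 (0.98) and UGT74B1 (0.84) did not pass. Of 7 glutathione transferases GSTU25 alone was called. Both counts stand beside 1.96% called among all genes of the members.

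PRX71 (AT5G64120), a class III peroxidase, a kind of enzyme that acts on wall polymers, averaged 5.87 ± 0.28, 9.05 ± 0.31 and 9.86 ± 0.46 in VISUAL, CC-M and CC-S, with a contrast of 1.18 (adjusted p = 0.0422). TBL41 (AT3G14850) and TBL40 (AT2G31110) belong to the TRICHOME BIREFRINGENCE-LIKE family, members of which acetylate wall polysaccharides, and were called in opposite directions. TBL41 averaged 3.55 ± 0.12, 4.51 ± 0.05 and 4.22 ± 0.13, with a contrast of 0.62 (adjusted p = 0.0369), and TBL40 averaged 9.17 ± 0.23, 8.07 ± 0.04 and 8.40 ± 0.23, with a contrast of -0.72 (adjusted p = 0.0348). In both the CC-M values lay outside all others, and the VISUAL mean of TBL41 is under the floor. With 1 array left out TBL41 and PRX71 stayed called in 1 of the 9 fits and TBL40 in 2, with adjusted p-values of up to 0.172, 0.171 and 0.167. Of the 17 expansins and XTH proteins, which loosen or rebuild walls, 0 were called (limma), beside 1.96% of all genes of the members. Among the 17, 7 were above 0 and the median was -0.05. EXPA4 had the most negative contrast of them, -1.48, with an adjusted p of 0.0567. All CC-M values lay below the others for EXPA4 and above them for XTH18 (0.64), as in 2.05% and 2.27% of all members.

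Of 6 auxin-response genes 1 was called, beside 1.96% of all genes of the members, and 4 were above 0. The called gene was WES1 (AT4G27260, also GH3.5), an enzyme that joins amino acids to auxin and to salicylic acid. It read 6.63, 7.27 and 7.17 in VISUAL, 9.60, 9.21 and 9.12 in CC-M and 9.54, 9.77 and 9.32 in CC-S. CC-M and CC-S overlapped and were both above VISUAL. The contrast was 1.03 (SE 0.171, adjusted p = 0.0346), lost without any CC-M or CC-S array or VISUAL replicate 5 (up to 0.134). LBD16 (0.83), GH3.3 (0.30), HAT2 (0.20), GH3.1 (-0.12) and IAA29 (-0.54) did not pass. The remaining named genes were YLS5 (AT2G38860, contrast 1.02), the factor bHLH94 (AT1G22490, 1.16, its VISUAL mean under the floor), HL (AT5G54390, a HAL2-like protein, 0.87) and TRM28 (AT5G03670, a TON1-recruiting-motif protein, 0.72) in the higher direction. PIR121 (AT5G18410), a subunit of the SCAR/WAVE complex that starts actin branching, was called lower at -0.53 and CCL (AT3G26740) at -0.48. TRM28 stayed called in 4 of the 9 fits that left out 1 array, YLS5 and bHLH94 in 3, HL and PIR121 in 2 and CCL in 1, with adjusted p-values between 0.0929 and 0.213 at the highest.

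**Figure D3:**
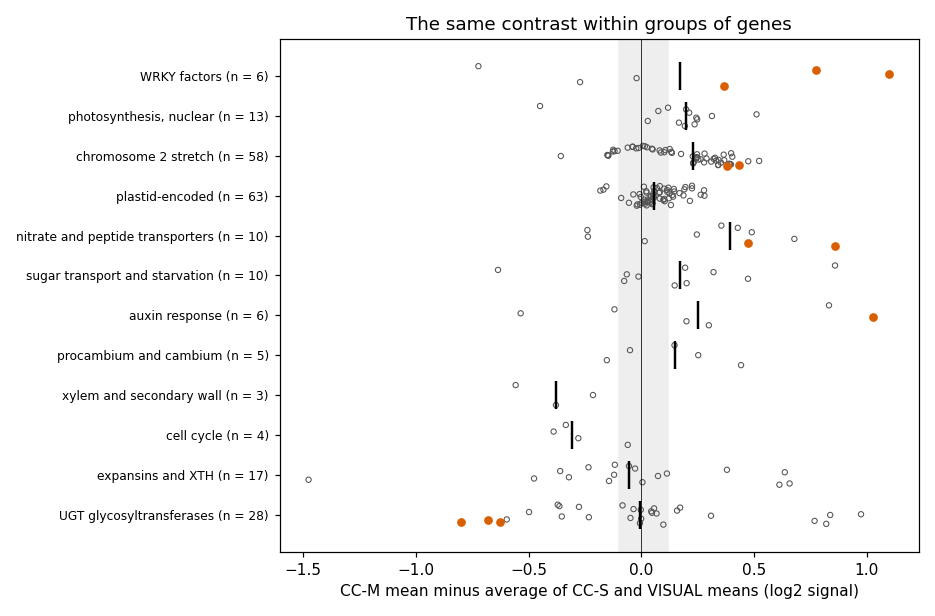
Midpoint contrast (horizontal, log2 signal) of each measured member in 12 groups of genes, with n the number of points, a vertical bar at the group's median, and filled orange points for members called at an adjusted p under 0.05. The grey band spans the quartiles of all 9761 members. Above 0 lie 12 of 13 nuclear photosynthesis genes, 45 of 58 probe sets of the chromosome 2 stretch and 4994 of all 9761 members.

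The cell types that the label is about could be checked only in part, since 0 of the 18 genes in the companion cell list were among the members. Of the phloem parenchyma list 5 genes were measured and 1, GTR2, was called; SWEET11 (contrast 0.15), a sucrose exporter, and the peptide genes CLE41 (0.25) and CLE44 (0.44) did not pass, and neither did GTR1 (0.25). All 5 were above 0, with a median of 0.25, beside 4936 of 9650 genes of the members above 0. Of the xylem list IRX15 (-0.56), IRX15-L (-0.21) and GUT2 (-0.38), which act in the synthesis of wall xylan, were measured and 0 were called. Procambium genes gave 0 calls of 5 with a median of 0.15, cell cycle genes 0 of 4 with a median of -0.31, sugar transport genes 0 of 10 with a median of 0.17 and stomatal genes 0 of 2. Beside these counts of 0 stands the 1.96% called among all genes of the members. Of 4 cell cycle genes AUR3, a mitotic kinase, was the 1 whose CC-M values all lay below the others (contrast -0.39, adjusted p = 0.303). Of the 10 sugar transport genes SWEET16 (-0.64, adjusted p = 0.197, limma) had all of them below and SWEET4 (0.86, adjusted p = 0.12) all above. Among all members 2.05% had all CC-M values below the others and 2.27% had all of them above.

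Photosynthesis genes, which mark the mesophyll, lay slightly above the midpoint in CC-M but did not pass. Of 13 nuclear photosynthesis genes 0 were called, 12 had a contrast above 0 and 4 had all CC-M values above the others, where 2.27% of all members did. Among all genes of the members 1.96% were called and 4936 of 9650 were above 0. Genes of 1 list may vary together, so nothing is read from these counts. Their median contrast was 0.20. PSBW, PSBY, PSAN and ATPC1, subunits of the photosystems and of the chloroplast ATP synthase, were those 4, with contrasts of 0.19, 0.25, 0.24 and 0.20 and adjusted p-values of 0.234, 0.182, 0.251 and 0.366. RCA, which activates the carbon-fixing enzyme Rubisco, had a contrast of 0.17, and LHCB4.3, a light-harvesting protein, had the 1 negative value, -0.45. By array, the median log2 signal of the 13 genes was 7.22, 7.12 and 7.14 in VISUAL, 7.79, 7.71 and 7.61 in CC-M and 7.53, 7.68 and 7.71 in CC-S. By these medians both induced groups were above VISUAL and overlapped each other. Gene by gene the median change from VISUAL was smaller, 0.25 in CC-M and 0.15 in CC-S. It was called for 4 and 5 of the 13, beside 18.9% and 31.7% of all members. A list of 8 chlorophyll a/b-binding and photosystem genes, which shares genes with this one, had 6 contrasts above 0 and a median of 0.14. Its median change from VISUAL was 0.04 in CC-M and -0.07 in CC-S.

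Of 63 plastid-encoded members 0 were called, 51 were above 0, 1 had all CC-M values above the others, and the median contrast was 0.05. Among all genes of the members 1.96% were called and 4936 of 9650 were above 0. All CC-M values lay above the others in 2.27% of all members. Plastid-encoded genes share their source and are not independent, so nothing is read from these counts. Their median signal by array was 11.50, 11.38 and 11.51 in VISUAL, 11.82, 11.78 and 11.77 in CC-M and 11.99, 11.85 and 11.73 in CC-S, so that the induced groups overlapped. The part of mesophyll or plastid content in the called contrasts was not tested.

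A run of neighbouring loci on chromosome 2, from AT2G07667 to AT2G07798, was noticed after the values had been seen and is described without a test. This region of the Arabidopsis nuclear genome is known to hold a copy of the mitochondrial genome, so the signal of its probe sets could come from mitochondrial transcripts, and the locus of origin is uncertain. Of its 58 member probe sets, for 43 genes, 45 had a contrast above 0, beside 4994 of all 9761 members. In 14 (24.1%, against 2.27% of members) all CC-M values were above the others. None had all of them below. With probe sets of identical values counted once, 42 of 53 were above 0 and 13 (24.5%) had all CC-M values above. Members of 1 stretch share their source and are not independent.

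The median contrast of the stretch was 0.23, made up of a median CC-M minus VISUAL of 0.10 and a median CC-M minus CC-S of 0.22. By array, its median signal was 8.52, 8.56 and 8.58 in VISUAL, 8.59, 8.60 and 8.54 in CC-M and 8.43, 8.2 and 8.28 in CC-S. CC-M overlapped VISUAL, and the CC-S arrays were the lowest. AT2G07705 was called, with 8.58, 8.63 and 8.58 in VISUAL, 9.09, 8.88 and 8.97 in CC-M and 8.69, 8.57 and 8.56 in CC-S. All its CC-M arrays were above the rest. The contrast was 0.38 (SE 0.0632, adjusted p = 0.0346), and it was lost in all fits with an array left out except that without VISUAL replicate 4 (up to 0.129). AT2G07772, the other called one, averaged 7.86 ± 0.12, 8.22 ± 0.07 and 7.72 ± 0.07 in VISUAL, CC-M and CC-S, with a contrast of 0.44 (adjusted p = 0.0366, lost without any CC-M or CC-S array or VISUAL replicate 5, up to 0.172). AT2G07721 had 9.07 ± 0.06, 9.03 ± 0.06 and 8.2 ± 0.22, where CC-M stayed near VISUAL and the contrast of 0.39 did not pass (adjusted p = 0.0941).

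Over the whole table the arrays of CC-M were set apart along the second principal component of all probe sets, which held 11.8% of the variance, after a first component (42.3%) that ran from VISUAL to CC-S. Scores on the second component were 14.7, 42.2 and 38.9 for CC-M, -23.9, -30.3 and -16.1 for CC-S and -20.7, 9.91 and -14.6 for VISUAL. CC-M replicates 4 and 5 had the highest scores, and CC-M replicate 3 was close to VISUAL replicate 4. Over the members alone the second component held 11.5%, with scores of 3.65, 19.1 and 18.4 for CC-M, -14.4, -12.3 and -0.23 for CC-S and -12.3, 1.09 and -2.94 for VISUAL.

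The number of called members depended on single arrays, those of CC-M most. The contrast weighs the CC-M mean more than either other mean, so leaving out a CC-M array costs the most precision by design. How much of the drop this makes was not tested. Without CC-M replicate 3, 4 or 5 the contrast was called for 40, 12 and 21 members, each of them among the 189. Without CC-S replicate 3, 4 or 5 the counts were 72, 68 and 82, and without VISUAL replicate 3, 4 or 5 they were 145, 286 and 75. Without CC-M replicate 4, of the 61 called members with CC-M above both means 1 was called, of the 69 below both 3, and of the 58 between and nearer to CC-S 8. The members called in all 9 fits that left out 1 array were 11 in number. They were AT4G15700, GSTU25, AT5G24230, AT4G16190, AT1G65845, AT5G61890, AT5G18600, OCT5, AT3G55240, AT1G79620 and AT1G61660, while 6 were called in none. Of the 11, AT4G15700 and AT5G18600 had a VISUAL mean under the floor, and GSTU25 had CC-M and CC-S means under it. The size of the contrast is not read in these genes.

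**Figure D4:**
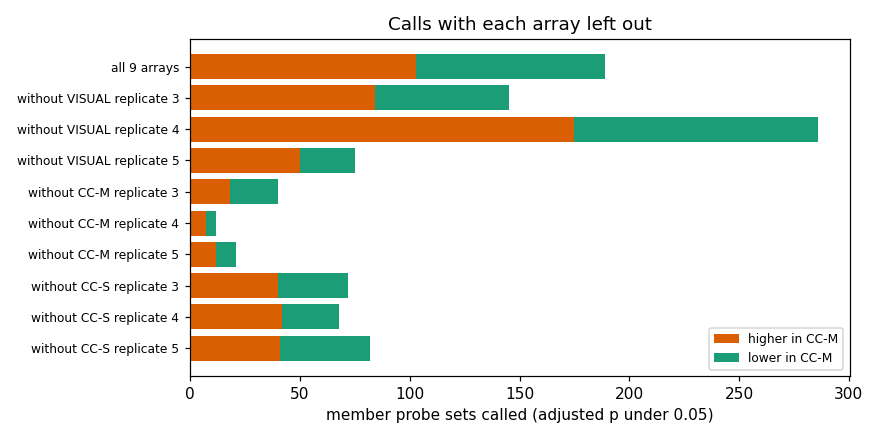
Member probe sets called for the midpoint contrast (horizontal, count at an adjusted p under 0.05) with all 9 arrays and with each array left out in turn, split into higher (orange) and lower (green) in CC-M. The bars run from 12 without CC-M replicate 4 to 286 without VISUAL replicate 4, against 189 with all arrays.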

How the data were processed

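Transcript levels were measured on 9 one-colour Affymetrix arrays. The authors deposited 1 table of log2 signals, made with Affymetrix Expression Console per the submitters' processing notes; no source used here gives the summary method. The values were used as deposited. Array medians ran from 4.71 to 4.90, no detection calls are given, and 7132 probe sets (18 members) share all 9 values with another. Probe sets were named through the platform annotation and a TAIR10.1 gene table, which matched 16574 of 16722 single-gene probe sets by gene number.

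Samples were grouped by their labels. The midpoint contrast and the pairwise differences came from a single limma model of the 9 arrays (version 3.58.1 under R 4.3.3), with a mean for each group, moderated variances (eBayes) with an intensity trend, 6 residual and 2.65 prior degrees of freedom and 2-sided tests. Adjustment (Benjamini-Hochberg) ran over the 38408 probe sets, and calls were made at an adjusted value under 0.05. To place CC-M outside both groups, the larger of the pairwise limma p-values was taken where both differences had 1 sign, and 1 otherwise. The script was tested on simulated data. Lists hold 1 probe set per gene, the brightest.

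The members and lists were chosen with earlier results of these data known. The text names the 15 largest called contrasts in each direction with separate values, the 5 members per direction with the smallest p of the test of both differences, the 5 per direction with the smallest p among those between the groups, and up to 4 genes per list. Genes named in the reference, those on the opposite side, the further genes of lists and families and the chromosome 2 stretch were added after their values were seen, as were corrections to the patterns of the AP2/ERF and SWEET families. Promoter motifs were planned and not analysed here.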

Additional observations from a re-analysis of the deposited data

How the results depend on the processing

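All alternatives were compared with 189 called members, 103 higher and 86 lower. After centring of the array medians 188 were called, after quantile normalization 194, with robust eBayes 171 and with a replicate block 135, of which 115 were among the 189. The block lost 74 calls and gained 20. Deviations of same-numbered arrays correlated between -0.0551 and 0.408, over 0.1 in 6 of 9 pairs, and those of different-numbered arrays between -0.453 and 0.163, below 0 in 12 of 18. Deviations from a group mean offset each other within the group, so these figures are not independent of each other. An array's best match in another group had its own number in 13 of 18 cases, a hint from the data and not the design. Since not every same-numbered pair exceeded 0.1 and the labels name no shared source, the numbers were not taken as pairing. Without the intensity trend 82 were called (45 higher, 37 lower), beyond 1.2-fold 27 (14 and 13) and with an ordinary linear model 8 (5 and 3). With arrays weighted by quality 282 were called (166 higher), with only probe sets above the floor fitted 281 (160 higher), with only single-gene probe sets 284 (160 higher), and with probe sets averaged per gene 283 (159 higher); the smaller tables have fewer tests to adjust over. Leaving out 1 array gave between 12 and 286 calls, 7 to 175 higher and 5 to 111 lower. Tests of both pairwise differences called 0 members in all of these fits in which they were run (not in that beyond 1.2-fold), except 1 without CC-M replicate 3. At an unadjusted p under 0.05 the same test passed for 134 to 298 members with 1 array left out, and separate CC-M values were found in 462 to 988, most without CC-M replicate 3. With fewer arrays separate values are easier to meet, so the latter counts cannot fall below the 422 of all arrays. Why the counts differed with the array left out was not tested.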
